A study of Homo sapiens with 77 samples.

Results

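Surface antigens that B cells carry at particular stages of their life, 10 genes in all, were followed through 2 RNA-seq experiments on diffuse large B cell lymphoma (DLBCL) lines. They were CD24, MME, CD44, CD9, CD27, MS4A1, CR2, FCER2, CD22 and CD72. The genes were chosen by name as stage antigens, and all 10 were found among the 35813 genes of the MI-503 count table and among the 21455 genes of the drug combination count table. The first experiment treated KARPAS422, DB, Farage and SUDHL5 with MI-503 at 800 nM or with DMSO, its solvent, for 3 days. The second treated KARPAS422 for 48 h and SuDHL10 for 24 h with EPZ-6438 (1000 nM) and VTP50469 (330 nM) together, with EPZ-6438, with VTP50469 or with DMSO. MI-503 and VTP50469 keep menin from binding the histone methyltransferase MLL, and EPZ-6438 inhibits EZH2, the methyltransferase of Polycomb repressive complex 2. KARPAS422, DB and SuDHL10 are described in the study as EZH2 mutant, and Farage and SUDHL5 as EZH2 wildtype. Each of the 16 groups had 2 libraries, the lines were not authenticated according to the methods, and no label ties the libraries of a group to separate cultures. The p-values therefore reflect the spread between libraries, which may be technical.

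B cells change their coat of surface proteins as they mature, and antibodies to these proteins are used to stage normal B cells and lymphomas. CD24, CD9 and the endopeptidase MME (CD10) mark early B cells, and MME returns in the germinal centre, where B cells mutate their antibody genes. MS4A1 (CD20), CD22 and CD72 are carried through most of the mature stages, CR2 (CD21) and FCER2 (CD23) by resting and follicular B cells, and CD27 and CD44 by memory and activated cells. CD22 and CD72 dampen signals of the B cell receptor by recruiting the phosphatase PTPN6, whereas CR2 strengthens them when complement is bound to the antigen.

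Stretches before a RefSeq start of CD22, CD72, FCER2 and CD24 are shown first. CD22, CD72 and FCER2 are 3 of the 5 antigens that were higher in DB with MI-503, and CD24 was not. They are shown because MLL carries a domain that binds unmethylated CG dinucleotides. The sequences are from RefSeq on GRCh38.p14 and run 5′ to 3′ on the gene's own strand. Each ends before the first annotated exon base of the 250-base window that precedes the RefSeq start. The CD22 and CD72 windows lie inside the GENCODE bounds of these genes, which begin at chr19:35319261 and chr9:35646810. They are therefore not upstream of all annotated exons of CD22 and CD72. Capitals mark CG, a motif that reads the same on both strands. The promoter table held entries for 9 of the 10 genes, and the first entry of each gene was used. The CD24 stretch lies at chr6:106975628-106975877 (minus strand, 250 bases), CD22 at chr19:35328937-35329165 (plus strand, 229 bases), CD72 at chr9:35618438-35618663 (minus strand, 226 bases) and FCER2 at chr19:7702147-7702381 (minus strand, 235 bases).
CD22: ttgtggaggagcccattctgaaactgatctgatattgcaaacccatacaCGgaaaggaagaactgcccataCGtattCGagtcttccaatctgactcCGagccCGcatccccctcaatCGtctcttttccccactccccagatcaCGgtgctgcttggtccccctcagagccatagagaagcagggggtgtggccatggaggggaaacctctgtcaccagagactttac
CD72: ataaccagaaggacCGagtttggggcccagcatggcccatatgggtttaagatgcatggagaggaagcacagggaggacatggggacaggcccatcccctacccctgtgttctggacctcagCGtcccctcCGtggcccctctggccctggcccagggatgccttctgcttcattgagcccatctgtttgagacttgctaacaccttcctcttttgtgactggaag
FCER2: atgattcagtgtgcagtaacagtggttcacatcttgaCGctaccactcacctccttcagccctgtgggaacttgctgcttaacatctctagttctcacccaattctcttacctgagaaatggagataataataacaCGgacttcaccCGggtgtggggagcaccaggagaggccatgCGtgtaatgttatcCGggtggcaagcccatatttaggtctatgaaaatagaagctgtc
CD24: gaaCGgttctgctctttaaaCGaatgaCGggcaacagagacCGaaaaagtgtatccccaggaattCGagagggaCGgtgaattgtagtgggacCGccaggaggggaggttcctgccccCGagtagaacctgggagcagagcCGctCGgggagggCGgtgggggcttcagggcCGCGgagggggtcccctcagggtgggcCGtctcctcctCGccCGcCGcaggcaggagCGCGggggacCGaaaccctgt

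In the full 250 bases before the start, CD24 held 20 CG dinucleotides, CD22 7, FCER2 5 and CD72 4. Among 35116 RefSeq windows of that length the median was 11, and the share of windows with fewer was 67.6% for CD24, 41.1% for CD22, 34.3% for FCER2 and 29.3% for CD72. CR2 and CD44, also higher in DB with MI-503, held 17 and 15, so the genes that rose ranged over 4 to 17. Of the other genes, MME held 15, CD9 10 and CD27 2. Later entries of the same gene differed, with 28, 29 and 1 for CD9, 25, 23 and 17 for MME, 27 and 17 for CD24 and 4 for FCER2. A count of CG says nothing of whether these bases are methylated or bound.

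Total counts per library ran from 13034958 to 54883332 with MI-503 and its controls and from 8956156 to 31573027 in the drug combination. Levels are given in CPM, read counts scaled by the library total, after correction by the trimmed mean of M values (TMM). All 7 B cell markers were above 1 CPM in each of the 32 libraries. DCN, a fibroblast gene, and CD3G, a T cell gene, were also found in KARPAS422. DCN had 603 to 1139 CPM there in the drug combination. Other lines carried such genes too. With DMSO, DCN had 44.3 and 41.2 CPM in DB and 43.3 and 43.1 CPM in SUDHL5. The T cell gene TRAC had 79.9 and 74.7 CPM in Farage, and the myeloid gene CSF1R 16.2 and 16.9 CPM in SuDHL10. A pair of libraries stood apart. MI-503 replicate 1 of Farage summed to 101.5 CPM over 13 epithelial markers and to 32.8 CPM over 7 erythroid markers, led by KRT14 (20.4 CPM) and HBB (25.8 CPM), against 15.0 to 23.2 CPM and at most 0.655 CPM in the other Farage libraries. In KARPAS422 with both drugs, replicate 2 had reads on 18199 genes, against 14200 to 16956 in the other 7 libraries of the line. All 10 T and NK cell markers were above 1 CPM in it, against 6 elsewhere. Replicate 2 of DMSO, VTP50469 and EPZ-6438 also had more genes (16956, 16649 and 16502) than replicate 1 (14200, 15676 and 14482). CD9 had 7, 7 and 8 reads in these replicate 2 libraries, against 1, 1 and 0. Leaving out the both-drugs library keeps them in the fit, and their part in the results was not tested.

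**Figure D1:**
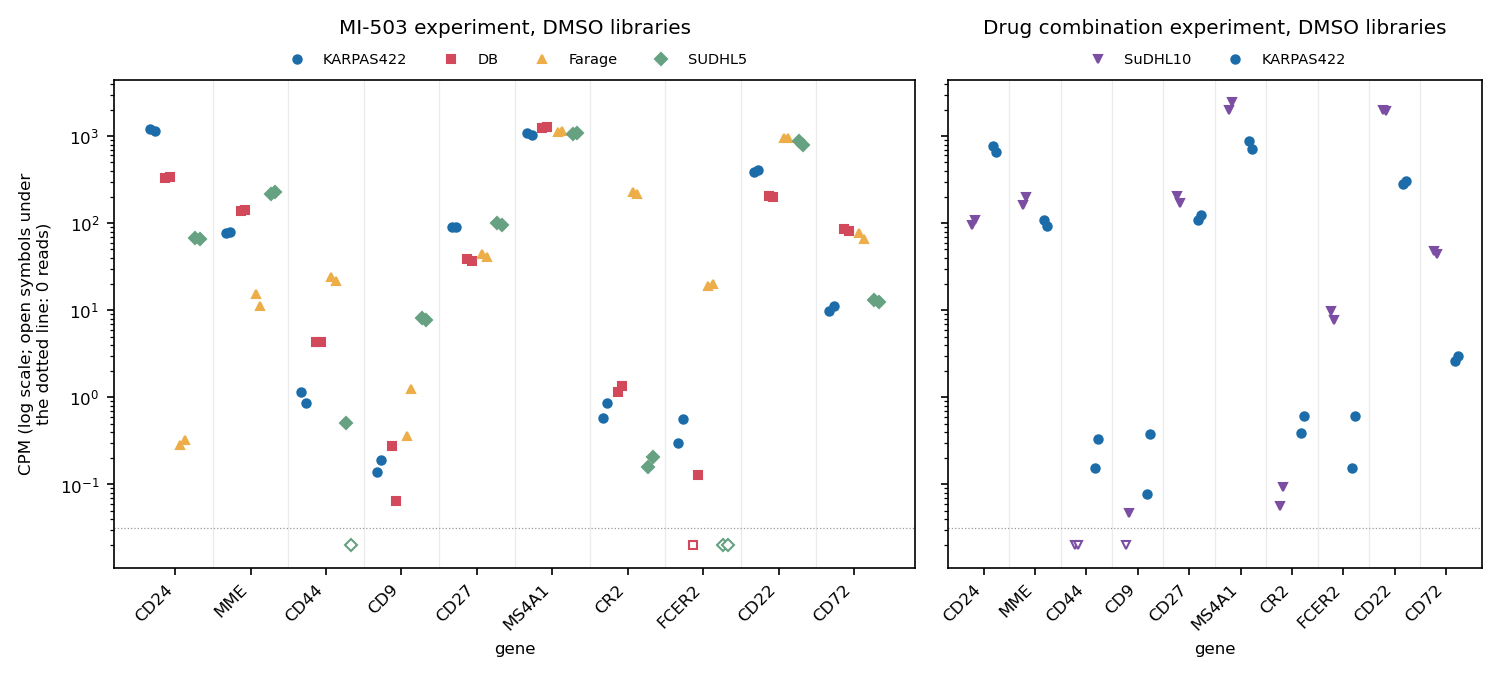
Level of each antigen gene in the DMSO libraries of the MI-503 experiment (left) and of the drug combination experiment (right), in CPM on a log scale, with 1 symbol per library. MS4A1 stayed between 1038 and 1281 CPM in the 4 lines on the left, while CD24, CR2 and FCER2 were spread over several orders of magnitude.

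Which antigens each line carried before any drug was read from the 8 DMSO libraries of the MI-503 experiment. FCER2, CD24 and CR2 separated the lines most. CD24 and MME were lowest in Farage, and CR2, FCER2 and CD44 were highest there. By edgeR's quasi-likelihood test over the 4 lines, 9 of the 10 genes were called, meaning an adjusted p under 0.1 and a pair of lines more than 1.5-fold apart, as were 85.3% of all genes tested. The exception was MS4A1, the target of rituximab, with 1094 and 1038 CPM in KARPAS422, 1240 and 1281 CPM in DB, 1126 and 1141 CPM in Farage, and 1053 and 1081 CPM in SUDHL5. Its largest gap was a log2 difference of -0.21 between KARPAS422 and DB (SE 0.036, adjusted p = 8.54e-05), and KARPAS422 and SUDHL5 did not differ beyond their spread (-0.01, adjusted p = 0.784).

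CD24 encodes a small glycoprotein held in the membrane by a lipid anchor, and its receptor on other cells is SIGLEC10. It had 1197 and 1152 CPM in KARPAS422, 327 and 336 CPM in DB, 0.285 and 0.327 CPM in Farage (4 and 5 reads), and 67.7 and 66.5 CPM in SUDHL5. No lines overlapped, and all neighbours in this order differed, by log2 1.86 between KARPAS422 and DB, by 2.26 between DB and SUDHL5, and by -7.70 between Farage and SUDHL5. On hg38 the gene lies on chromosome 6 from 106969831 to 106975627 (minus strand). It has near-identical processed copies elsewhere in the genome, of which CD24P1 held at most 3 reads in any library of the MI-503 experiment, and the counting of reads with several matches is left unstated in the sources used here. Per kilobase of exon, CD24 in KARPAS422 (379 ± 10.3 CPM per kb, SD, n = 2) lay above MS4A1 in the same libraries (223 ± 8.25 CPM per kb), whereas in SUDHL5 CD24 (21.7 ± 0.256 CPM per kb) lay below MS4A1 (224 ± 4.03 CPM per kb).

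MME, the CD10 endopeptidase that defines the germinal centre type of DLBCL in routine staining, had another order. It had 77.6 and 79.5 CPM in KARPAS422, 137 and 142 CPM in DB, 15.3 and 11.3 CPM in Farage, and 216 and 228 CPM in SUDHL5. The steps between neighbours were all called, with log2 differences of -0.71 between DB and SUDHL5, -0.80 between KARPAS422 and DB, and 2.51 between KARPAS422 and Farage. CD9, a tetraspanin that organises membrane proteins, was at 8.14 and 7.80 CPM in SUDHL5, at 0.357 and 1.24 CPM in Farage, and at 0.0651 to 0.273 CPM in DB and KARPAS422, which did not differ beyond their spread (log2 0.02 for KARPAS422 over DB, adjusted p = 0.988).

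The antigens of resting B cells marked Farage. CR2, the receptor for complement fragment C3d and for Epstein-Barr virus, had 225 and 218 CPM in Farage, 1.16 and 1.37 CPM in DB, 0.576 and 0.871 CPM in KARPAS422, and 0.158 and 0.209 CPM in SUDHL5. Farage exceeded SUDHL5 by log2 10.38, with 11 reads over the SUDHL5 libraries. Pooled, the ratio was 1307, with an interval of 730 to 2620 that covers counting error only. The smallest step between neighbours was -0.77 between KARPAS422 and DB (SE 0.27, adjusted p = 0.0165). FCER2, the low affinity IgE receptor, had 18.9 and 20.2 CPM in Farage, 0.297 and 0.557 CPM in KARPAS422, 0 and 2 reads in the DB libraries, and no read in SUDHL5. Against the floor of 3 counts over the SUDHL5 libraries, Farage was 424-fold higher and KARPAS422 9.25-fold higher. These folds leave out the counting error of the reads in Farage and KARPAS422. Both Farage libraries lay above every library of the other 3 lines for these genes.

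CD44, the hyaluronan receptor, was likewise highest in Farage with 23.96 and 21.9 CPM, followed by DB with 4.37 and 4.36 CPM and KARPAS422 with 1.15 and 0.871 CPM. SUDHL5 had 26 reads (0.514 CPM) in one DMSO library and 0 in the other, so its rank under KARPAS422 (log2 1.37 for KARPAS422 over SUDHL5, adjusted p = 0.00842) was lost once libraries were thinned to equal depth (1.16, adjusted p = 0.126). CD27, the receptor that memory B cells use to bind CD70, had 101 and 96.1 CPM in SUDHL5 and 90.5 and 90.9 CPM in KARPAS422, against 44.9 and 40.5 CPM in Farage and 39.0 and 37.2 CPM in DB. Within these pairs the differences were under 1.5-fold, at log2 -0.13 for KARPAS422 over SUDHL5 and -0.26 for DB over Farage.

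CD22 and CD72, the inhibitory receptors of the B cell receptor, differed in their order. CD22 had 959 and 947 CPM in Farage and 890 and 796 CPM in SUDHL5, above 390 and 412 CPM in KARPAS422 and 207 and 198 CPM in DB. CD72 was instead high in DB (85.0 and 82.3 CPM) and Farage (76.9 and 65.3 CPM) and low in SUDHL5 (13.04 and 12.5 CPM) and KARPAS422 (9.88 and 11.1 CPM). DB thus had the lowest CD22 of the 4 lines and, with Farage, the highest CD72. The call count over the 4 lines was 9 with each of the 8 libraries left out.

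In the drug combination experiment, SuDHL10 was set against KARPAS422 in DMSO. SuDHL10 carried less CD24 and more of the other 6 antigens tested, while CD44, CR2 and CD9 had fewer reads there. CD24 had 95.1 and 108 CPM in SuDHL10, against 760 and 658 CPM in KARPAS422 (log2 -2.77, SE 0.15, adjusted p = 2.81e-08). CD72 had 47.9 and 44.3 CPM in SuDHL10, against 2.64 and 2.97 CPM in KARPAS422 (4.06, SE 0.20), FCER2 9.80 and 7.83 CPM against 0.155 and 0.604 CPM (4.43, SE 0.43), and CD22 1987 and 1933 CPM against 280 and 305 CPM (2.78, SE 0.13). MS4A1 (1.51), MME (0.88) and CD27 (0.71) were also higher, so that 7 of the 7 genes tested were called, against 46.6% of all genes. FCER2, with 2 and 11 reads in KARPAS422, passed the filter on low counts only with the SuDHL10 libraries. With total counts in place of TMM, CD27 fell under 1.5-fold (0.53). CD44, CD9 and CR2 did not pass the filter on low counts, with 0, 1 and 3 reads over the SuDHL10 libraries against 8, 8 and 16 over those of KARPAS422. Against a floor of 3 counts in SuDHL10, CD44 was 3.34-fold lower there, which leaves out the counting error of the 8 reads in KARPAS422. By counting error the ratio was 0.15 (0.028 to 0.52) for CR2 and 0.0997 (0.00225 to 0.744) for CD9. KARPAS422 is in both tables, which were scaled separately, and its levels are not compared between them.

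**Figure D2:**
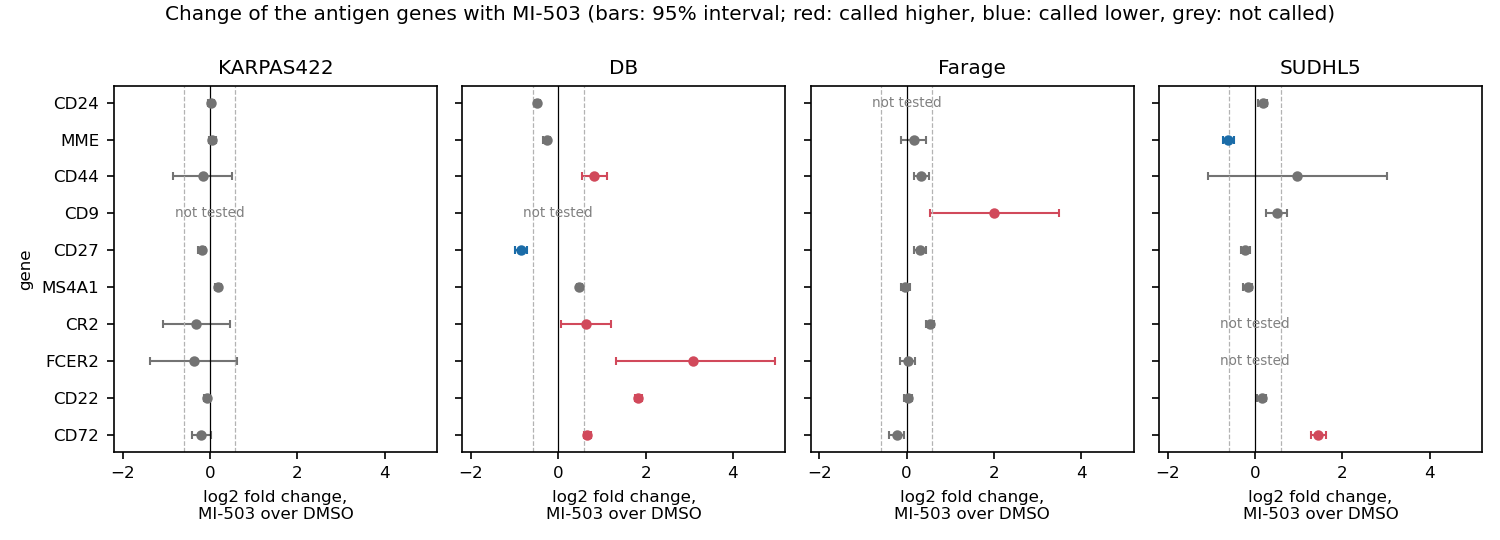
Log2 fold change of each antigen gene with MI-503 over DMSO in 4 lines, with 95% intervals, dashed lines at 1.5-fold, and red or blue points for genes called higher or lower. DB had 6 of 9 genes called, KARPAS422 had none of 9, and CD22 was called in DB alone of the 4 lines.

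The next comparison asked how the antigens changed when menin was inhibited. DB moved most. After 3 days of MI-503, CD22, CD72, FCER2, CD44 and CR2 were higher in DB and CD27 was lower, 6 of the 9 genes tested, against 26.4% of all genes tested in this line. The 5 that rose compare with 16.2% of genes called higher, and the 1 that fell with 10.2% called lower. FCER2, 1 of the 5, had 0 and 2 reads in the controls and passed the filter on low counts only through its MI-503 libraries. It could be tested only because it was high there, and these counts and the median include it. The median log2 change of the 9 genes was 0.64, beside 0.02 over all genes. In bulk RNA a larger share of cells that carry an antigen and more RNA per cell cannot be told apart.

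CD22, a lectin that binds sialic acid on neighbouring glycoproteins, had 741 and 696 CPM in DB with MI-503, against 207 and 198 CPM with DMSO. Both treated libraries lay above both controls, by log2 1.83 (SE 0.037, adjusted p = 7.83e-12), and with MI-503 DB lay above KARPAS422 and below SUDHL5 with DMSO in the same table. CD72, whose ligand is the semaphorin SEMA4D, had 134 and 130 CPM with MI-503, against 85.0 and 82.3 CPM with DMSO (0.66, SE 0.037, adjusted p = 1.65e-08), again without overlap. FCER2 had 0.695 and 0.473 CPM with MI-503 (38 and 23 reads), against 0 and 0.130 CPM with DMSO (0 and 2 reads). Pooled, this was 8.86-fold, with a 95% interval of 2.35 to 74.8 that covers counting error only, and the test gave log2 3.07 (SE 0.83, adjusted p = 0.0057). With libraries thinned to equal depth, or without MI-503 replicate 1, FCER2 had too few reads to be tested.

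CD44 had 7.72 and 7.69 CPM with MI-503, against 4.37 and 4.36 CPM with DMSO in DB (0.82, SE 0.13, adjusted p = 0.000132). CR2 had 1.85 and 2.096 CPM with MI-503, against 1.16 and 1.37 CPM with DMSO (0.64, SE 0.26, adjusted p = 0.0493). The CR2 call was lost with DESeq2 (adjusted p = 0.243), without DMSO replicate 1 (0.52, adjusted p = 0.199) and without MI-503 replicate 2 (0.56, adjusted p = 0.224), with adjusted p from 0.030 to 0.243 over its alternatives. CD27 went the other way, to 21.2 and 20.9 CPM with MI-503, against 39.0 and 37.2 CPM with DMSO (-0.85, SE 0.061, adjusted p = 1.45e-07). Groups did not overlap for any of these genes, although groups of 2 libraries can separate without a change. The share of all genes without overlap was not counted. CD24 (-0.48), MME (-0.27) and MS4A1 (0.48) passed the adjusted p but changed by under 1.5-fold, so all 9 genes passed it, as did 69.2% of all genes, with CD24 at 239 and 235 CPM with MI-503 and 327 and 336 CPM with DMSO.

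Depth moved with treatment in DB. Both MI-503 libraries were deep (52236459 and 46170498 counts) and both DMSO libraries shallow (14695930 and 15474692 counts). At equal depth 5 of the 6 genes were still called, and the sixth, FCER2, had too few reads to be tested. Over all genes the number called at equal depth stayed within 1.5 times that of the main fit. Thinning evens out depth alone, and other differences between these sets of libraries were not tested. The 13 epithelial markers summed to 34.5 and 34.8 CPM with MI-503, with 6 of them above 1 CPM, against 20.2 and 21.9 CPM with 2 above 1 CPM with DMSO. The 7 erythroid markers summed to at most 0.256 CPM with MI-503 and were all at 0 with DMSO. The part of these markers in the changes was not tested.

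**Figure D3:**
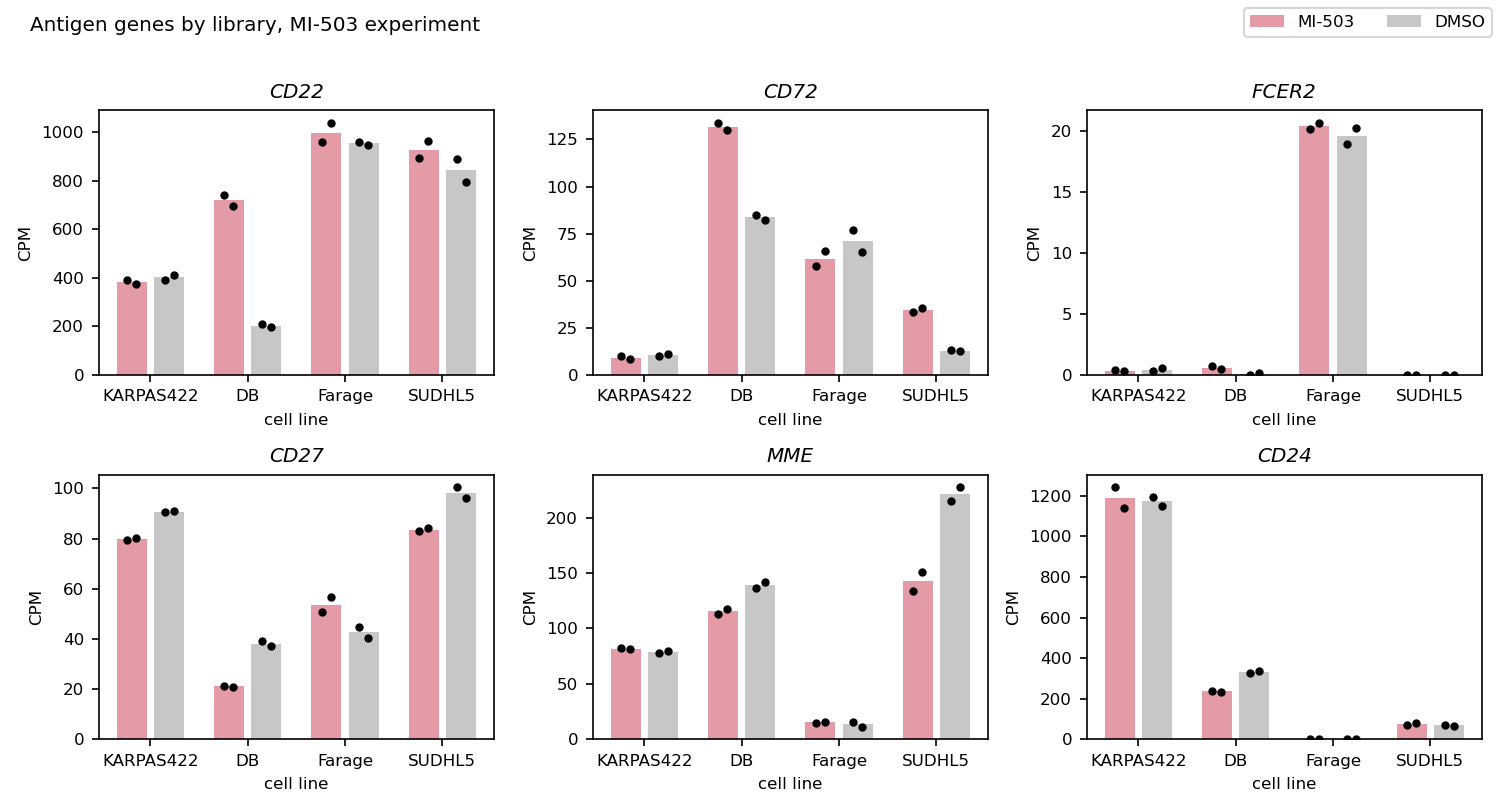
CPM of CD22, CD72, FCER2, CD27, MME and CD24 in each library of the MI-503 experiment, with MI-503 (red) left of DMSO (grey) in every line, bars for the mean of 2 libraries and dots for the libraries. CD22 stood apart from DMSO in DB and CD72 in SUDHL5, while the CD24 bars of KARPAS422 stood level.

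In SUDHL5, CD72 rose and MME fell, 2 of the 8 genes tested (14.1% of all genes). CD72 had 33.3 and 35.7 CPM with MI-503, against 13.04 and 12.5 CPM with DMSO (log2 1.45, SE 0.078, adjusted p = 1.71e-06). The treated libraries lay well above the controls, and the call was kept under each alternative run, between 1.44 and 1.52. MME had 134 and 151 CPM with MI-503, against 216 and 228 CPM with DMSO (-0.61, SE 0.054, adjusted p = 2.39e-05), without overlap. It fell just under 1.5-fold without DMSO replicate 2 (-0.55) or without MI-503 replicate 1 (-0.56), with adjusted p of at most 0.000152 over its alternatives. CD9 (0.50), CD24 (0.17), CD22 (0.15), MS4A1 (-0.17) and CD27 (-0.22) passed the adjusted p with smaller changes, which makes 7 of 8 past it, against 55.0% of all genes. FCER2 had no read in any SUDHL5 library, and CR2 had 23 reads with MI-503 against 11 with DMSO, a ratio of 2.48 (1.16 to 5.64 by counting error). CD44 had 1 and 43 reads with MI-503 and 26 and 0 with DMSO, so its replicates differed more than its groups. The libraries with 43 and 26 reads were the deep ones, at 44138252 and 54653277 counts against 13034958 and 14824148, and their epithelial markers summed to 32.2 and 29.6 CPM with 6 of 13 above 1 CPM, against 24.1 and 18.5 CPM with 2 above it. The part of depth or other transcripts in these reads was not tested. Without DMSO replicate 1 it was called (6.94, adjusted p = 0.0288), and without MI-503 replicate 2 CD9 was (0.60, adjusted p = 0.0118).

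Farage, which began with the highest CR2, FCER2 and CD44, had 1 call among 9 genes tested (3.54% of all genes). It was CD9, with 5.50 and 1.62 CPM with MI-503, against 0.357 and 1.24 CPM with DMSO (log2 2.01, SE 0.67, adjusted p = 0.0613). With 5 and 19 reads in the DMSO libraries, CD9 passed the filter on low counts only with the MI-503 libraries. The highest value came from MI-503 replicate 1, the library with the epithelial and erythroid transcripts described above, and without it the change was 0.92 (adjusted p = 0.245). The call was also lost without DMSO replicate 1 (1.47, adjusted p = 0.328) or DMSO replicate 2 (3.26, adjusted p = 0.122), and DESeq2 gave no adjusted p. CR2 had 312 and 341 CPM with MI-503, against 225 and 218 CPM with DMSO (0.53, SE 0.040, adjusted p = 3.29e-05), higher in both libraries and just under 1.5-fold. CD44 (0.34), CD27 (0.30) and CD72 (-0.23) also passed the adjusted p with smaller changes, which makes 5 of 9 past it, against 27% of all genes. Without MI-503 replicate 1, CR2 (0.55), CD44 (0.37) and CD27 (0.34) still passed it and CD72 did not (-0.18, adjusted p = 0.105). FCER2 stayed at 20.2 and 20.7 CPM with MI-503, against 18.9 and 20.2 CPM with DMSO, with an interval of -0.16 to 0.20 on the log2 scale. CD24 had 4 and 26 reads with MI-503 and 4 and 5 with DMSO, a ratio of 1.503 (0.696 to 3.599).

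In KARPAS422, 0 of the 9 genes tested were called by edgeR with MI-503, while 10.1% of all genes were. At an unadjusted p under 0.05 there were 2, CD27 (log2 -0.19) and MS4A1 (0.19), which also passed the adjusted p, as did 51.8% of all genes, and DESeq2 called 0. CD24 had 1243 and 1140 CPM with MI-503, against 1197 and 1152 CPM with DMSO, with an interval of -0.05 to 0.09. CD22 had 392 and 375 CPM with MI-503, against 390 and 412 CPM with DMSO, with an interval of -0.14 to 0.01. Changes as large as those of CD22 in DB or CD72 in SUDHL5 lie outside these intervals and outside that of CD72 in KARPAS422 (-0.41 to 0.02).

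Whether the change itself differed among the 4 lines was tested in a fit of all 16 libraries. It did for 8 of the 10 genes, against 31.9% of all genes, and CD44 and CD9 did not pass. The call was lost for CR2 without KARPAS422 DMSO replicate 2 (adjusted p = 0.266) or MI-503 replicate 1 (adjusted p = 0.160), and for FCER2 without DB DMSO replicate 1 (adjusted p = 0.138). MS4A1 fell under 1.5-fold without SUDHL5 MI-503 replicate 1 (0.58). For CD22 the change was lower in KARPAS422 than in DB by log2 -1.89 (SE 0.086) and higher in DB than in Farage by 1.76 and than in SUDHL5 by 1.69. For CD72 it was lower in Farage than in SUDHL5 by -1.62 (SE 0.13) and in KARPAS422 than in SUDHL5 by -1.62, and also lower in DB than in SUDHL5 by -0.78. CD27 changed downward in DB relative to Farage (-1.20, SE 0.093) and to SUDHL5 (-0.62). The second of these fell under 1.5-fold with total counts (-0.57) and without DB DMSO replicate 1 or SUDHL5 DMSO replicate 2 (both -0.58). MME was higher in Farage than in SUDHL5 in its change by 0.84. For CD24 the change was lower in DB than in SUDHL5 by -0.65 (SE 0.081), and by -0.58, under 1.5-fold, without SUDHL5 MI-503 replicate 2. FCER2 changed more in DB than in Farage (3.01, SE 0.79, adjusted p = 0.00644), on 2 reads in the DB controls.

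Other B cell genes, grouped in lists by stage, were read in DB against the 26.4% of all genes called there, 16.2% higher and 10.2% lower. Of 14 pan-B surface genes tested, 4 were higher, among them LY9 (log2 2.62), CXCR5 (1.32) and CD53 (0.88), and 1, the B cell receptor subunit CD79B (-0.98), was lower. Of 8 germinal centre genes, 0 were higher and 3 lower, the repressor BCL6 (-1.69), SERPINA9 (-2.12) and RGS13 (-0.75). Of 6 early B cell genes, 3 were lower, IL7R (-2.45), VPREB1 (-3.11) and CD1C (-2.06). Among 20 binding partners and enzymes of the antigens, 19 were tested. Picked by the smallest p among those called were CD70, the ligand of CD27, at 1.72, the adaptor TRAF5 at 1.84, the kinase LYN at 0.64 and the kinase SYK at -0.69. As picked genes, they are not set against the share of all genes called. In KARPAS422, where none of the antigens was called, 5 of 10 genes of activated and memory cells were higher and 1 lower, including CD1D (1.17), CD70 (1.01), CD86 (0.74) and CD69 (0.81), against 10.1% of all genes called. In SUDHL5, 4 of 11 of them were lower, among them CD69 (-0.84) and CD83 (-0.72), against 14.1% called, and in Farage 0 of 11 were called by edgeR, with 4 of them at an adjusted p under 0.1 and a smaller change.

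**Figure D4:**
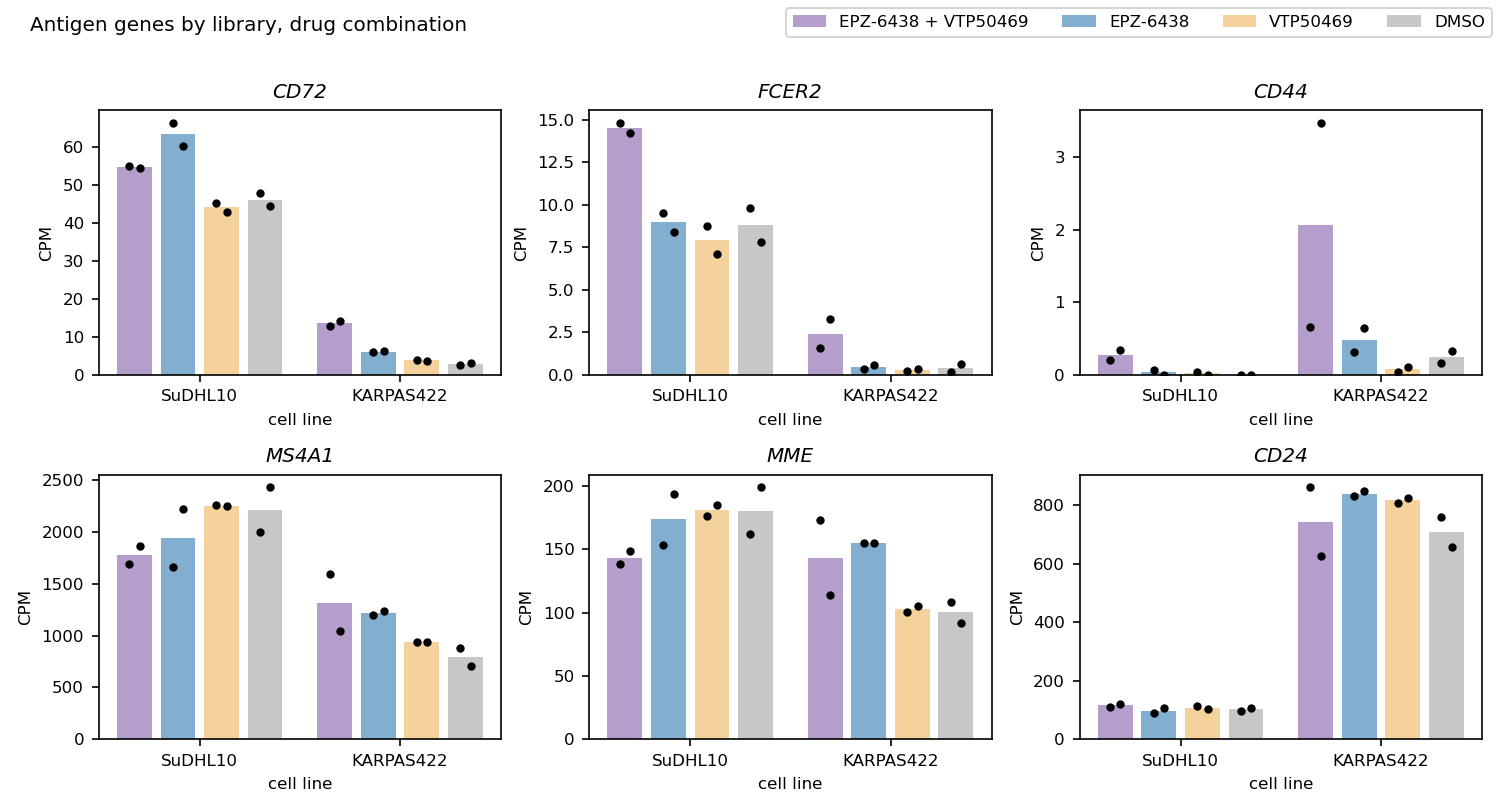
CPM of CD72, FCER2, CD44, MS4A1, MME and CD24 in each library of the drug combination experiment for SuDHL10 and KARPAS422, with both drugs, EPZ-6438, VTP50469 and DMSO from left to right, bars for the mean of 2 libraries and dots for the libraries. CD72 was highest with both drugs in KARPAS422, at 12.9 and 14.1 CPM, and the CD44 bar there rested on 1 library.

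The second experiment set EZH2 inhibition and menin inhibition, alone and together, against DMSO. In KARPAS422 the combination raised CD72 above all other treatments. CD72 had 12.9 and 14.1 CPM with both drugs, 6.04 and 6.18 CPM with EPZ-6438, 3.92 and 3.72 CPM with VTP50469, and 2.64 and 2.97 CPM with DMSO. The 4 groups did not overlap. Both drugs over DMSO gave log2 2.30 (SE 0.21, adjusted p = 0.000588), and this call was kept with each of the 8 libraries left out. EPZ-6438 alone gave 1.11 (SE 0.21, adjusted p = 0.025), a call lost in 6 of the 8 leave-outs with adjusted p of up to 0.481. VTP50469 alone gave 0.52 (SE 0.20, adjusted p = 0.348). The combination also exceeded EPZ-6438 by 1.19 (adjusted p = 0.0192) and VTP50469 by 1.78 (adjusted p = 0.00255), and the first of these was lost without VTP50469 replicate 1 (1.11, adjusted p = 0.259), EPZ-6438 replicate 1 (1.28, adjusted p = 0.173) or EPZ-6438 replicate 2 (1.09, adjusted p = 0.493), and the second without VTP50469 replicate 1 (1.77, adjusted p = 0.140).

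With both drugs, 4 of the 8 genes tested in KARPAS422 were called, all higher, against 35.0% of all genes called and 19.8% called higher. Besides CD72 they were FCER2, CD44 and MS4A1. FCER2 and CD44 passed the filter on low counts only with the both-drugs libraries. The 4 of 8 thus include genes that could be tested only because they were high there. FCER2 had 1.57 and 3.26 CPM with both drugs (31 and 59 reads), 0.312 and 0.586 CPM with EPZ-6438, 0.218 and 0.310 CPM with VTP50469, and 0.155 and 0.604 CPM with DMSO (2 and 11 reads). The change was log2 2.65 (SE 0.82, adjusted p = 0.0413). CD44 had 0.657 and 3.48 CPM with both drugs (13 and 63 reads), 0.312 and 0.651 CPM with EPZ-6438, 0.0436 and 0.103 CPM with VTP50469 (1 and 2 reads), and 0.155 and 0.330 CPM with DMSO (2 and 6 reads). The change was 3.04 (SE 1.02, adjusted p = 0.0525). For both genes the libraries with both drugs lay above the DMSO libraries, and replicate 2, the library that stood apart, had the highest value.

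Without both-drugs replicate 2, FCER2 in KARPAS422 was at log2 2.07 (adjusted p = 0.147) and CD44 at 1.45 (adjusted p = 0.396), neither called. MME was called in their place (0.84, adjusted p = 0.00319) beside CD72 and MS4A1, which made 3 of 9 genes tested, against 29.8% of all genes. CD9, not tested for its low counts, had 78 of its 80 reads with both drugs in that library. The T and NK cell markers summed to 305.2 and 372.9 CPM with both drugs, against 361.5 and 386.8 CPM with DMSO, but CD3G alone made 171 of the 305.2 CPM in replicate 2, where all 10 genes of the list exceeded 1 CPM. The myeloid markers summed to 28.8 CPM there with 4 of 9 above 1 CPM, against 17.8 to 21.2 CPM and 1 to 3 in the other 7 libraries. Of 13 epithelial markers 4 were above 1 CPM, against 1 to 2, and of 9 fibroblast and endothelial markers 6, against 2 to 3, and no gene of these 4 lists was at 0. The share of other transcripts in that library's values was not tested. FCER2 and CD44 were also lost when the 2 compared groups were fitted alone (adjusted p = 0.132 and 0.146) and in other leave-outs, with adjusted p of up to 0.231 for FCER2 and 0.396 for CD44.

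MS4A1 had 1591 and 1046 CPM with both drugs, 1200 and 1237 CPM with EPZ-6438, 934 and 940 CPM with VTP50469, and 877 and 707 CPM with DMSO in KARPAS422. Both drugs gave log2 0.78 (SE 0.23, adjusted p = 0.0358), with no overlap with DMSO, but without both-drugs replicate 1 the change was 0.21 (adjusted p = 0.256) and without DMSO replicate 2 it was 0.50 (adjusted p = 0.150). It was also lost without VTP50469 replicate 1 or EPZ-6438 replicate 2 and with the 2 groups alone (adjusted p = 0.128). MME had 174 and 114 CPM with both drugs, 155 and 155 CPM with EPZ-6438, 100 and 105 CPM with VTP50469, and 109 and 91.9 CPM with DMSO (log2 0.56 for both drugs, adjusted p = 0.0978, under 1.5-fold). CD24 had 861 and 625 CPM with both drugs, 830 and 849 CPM with EPZ-6438, 808 and 825 CPM with VTP50469, and 760 and 658 CPM with DMSO, and both drugs overlapped with DMSO (0.11, interval -0.33 to 0.54). CD22 was at 332 to 341 CPM with both drugs, against 280 to 305 CPM with DMSO, and CD27 at 113 to 119 CPM against 109 to 126 CPM.

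Of single drugs in KARPAS422, EPZ-6438 had 1 of 8 genes called, CD72, against 9.39% of all genes. With the replicate block it had 3, adding MME (log2 0.62, adjusted p = 0.0438) and MS4A1 (0.62, adjusted p = 0.0326). The block also raised the calls over all genes, from 1241 to 1443. VTP50469 had 0 of 8 called by edgeR, against 2.47% of all genes, with 3 at an unadjusted p under 0.05 and 0 with DESeq2. Both drugs over EPZ-6438 had 1 of 8 (12.1% of all genes). With the replicate block it was 3, adding FCER2 (2.46, adjusted p = 0.017) and CD44 (1.96, adjusted p = 0.0464). Calls over all genes rose with the block as well, from 1605 to 3708. Without replicate 2 of both drugs, and with no block, FCER2 was at 1.86 (adjusted p = 0.300) and CD44 at 0.51 (adjusted p = 0.846). Both drugs over VTP50469 had 3 of 8 (24% of all genes), CD44 (4.64), FCER2 (3.11) and CD72 (1.78). Without both-drugs replicate 2, CD44 was not called (3.08, adjusted p = 0.103), FCER2 (2.56, adjusted p = 0.092) and CD72 (1.76) were, and MME (0.77) and MS4A1 (0.78) were added. None of the 3 was called without VTP50469 replicate 1, with adjusted p of 0.313 for CD44, 0.381 for FCER2 and 0.140 for CD72. Whether the combination departed from the sum of the single changes was tested on the log2 scale, with 0 of 8 genes called by edgeR and 0 of 13223 genes overall. At an unadjusted p under 0.05 there were 2 of the 8 and 769 of all genes, and DESeq2 called 0 of the 8 and 28 of all genes. The departure was 0.67 for CD72 (interval -0.01 to 1.36). Without both-drugs replicate 1, CD44 (4.23) and FCER2 (3.09) lay above the sum and CD24 (-0.89), MME (-0.75) and MS4A1 (-0.72) below it. The group was then replicate 2 alone, the library that stood apart, with 63 of the 76 CD44 reads, and was assumed to vary like the other groups. These comparisons share the DMSO libraries or the libraries with both drugs.

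In SuDHL10, FCER2 responded to the combination. It had 14.8 and 14.2 CPM with both drugs, 9.52 and 8.41 CPM with EPZ-6438, 8.77 and 7.13 CPM with VTP50469, and 9.80 and 7.83 CPM with DMSO. The libraries with both drugs lay above all others of the line, by log2 0.69 over DMSO (SE 0.16, adjusted p = 0.0233), 0.68 over EPZ-6438 (adjusted p = 0.0804) and 0.82 over VTP50469 (adjusted p = 0.0244). It was the 1 gene called of 7 tested in each of the 3 comparisons, against 11.8%, 2.39% and 7.69% of all genes. Over DMSO the call was lost without DMSO replicate 2 (0.53, adjusted p = 0.152), both-drugs replicate 1 (0.64, adjusted p = 0.164) or both-drugs replicate 2 (0.74, adjusted p = 0.111), and over the single drugs it was lost in 5 and 4 of the 8 leave-outs. FCER2 was also the antigen that the replicate block called for departure from the sum of the single changes (0.83, adjusted p = 0.0133). The block called 508 genes in all for departure, against 6 without it. Without the block 0 of 7 antigens were called by edgeR (0.0526% of all genes, 2 of the 7 at an unadjusted p under 0.05, 0 with DESeq2).

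CD72 in SuDHL10 was highest with EPZ-6438 alone, at 54.9 and 54.4 CPM with both drugs, 66.3 and 60.2 CPM with EPZ-6438, 45.3 and 42.9 CPM with VTP50469, and 47.9 and 44.3 CPM with DMSO. The change with EPZ-6438 was log2 0.45 (SE 0.11, adjusted p = 0.0282), under 1.5-fold, and that with both drugs 0.22 (adjusted p = 0.200). EPZ-6438 thus had 0 of 7 genes called by edgeR (9.92% of all genes, 1 of the 7 at an unadjusted p under 0.05, 0 with DESeq2). VTP50469 had 0 of 7, with 0 of 11409 genes overall (1 of the 7 and 724 of all genes at an unadjusted p under 0.05, 0 of the 7 and 7 of all genes with DESeq2). MME had 138 and 149 CPM with both drugs, against 162 and 199 CPM with DMSO (-0.36, adjusted p = 0.097, under 1.5-fold). CD24 had 111 and 120 CPM with both drugs, against 95.1 and 108 CPM with DMSO, with an interval of -0.06 to 0.39. CD44 had 3 and 7 reads with both drugs, against 0 in the DMSO libraries and 1 read with each single drug. Against the floor of 3 counts CD44 was 3.74-fold higher than DMSO, which leaves out the counting error of the 3 and 7 reads.

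The lines differed in how the antigens answered the combination, 24 h in SuDHL10 and 48 h in KARPAS422, so line and time cannot be told apart. SuDHL10 minus KARPAS422, the change with both drugs was lower for CD72 (log2 -2.01, SE 0.15, adjusted p = 6.54e-06), FCER2 (-1.83, SE 0.62, adjusted p = 0.0492), MS4A1 (-1.05, SE 0.26, adjusted p = 0.0116) and MME (-0.85, SE 0.25, adjusted p = 0.0298), 4 of 9 genes tested against 24.2% of all genes. Without both-drugs replicate 2 of KARPAS422 these 4 were called at -2.09, -1.33, -1.46 and -1.26. With EPZ-6438 it was lower for CD72 (-0.66, SE 0.16, adjusted p = 0.0548), 1 of 9 against 3.66%. That call was lost with DESeq2 (adjusted p = 0.133), which instead called MME (-0.69) and MS4A1 (-0.82), as the replicate block did beside CD72. It was also lost in 10 of the 16 leave-outs, with adjusted p of up to 0.240, and FCER2 with both drugs in 4 of them, with adjusted p of up to 0.123. With VTP50469, 0 of 9 were called by edgeR (0.509% of all genes, 2 of the 9 at an unadjusted p under 0.05, 0 with DESeq2). As both menin inhibitors were used on KARPAS422, their values for CD72 stand side by side without a comparison, since dose, time and table differ: log2 -0.19 with MI-503 and 0.52 with VTP50469, neither called.

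With both drugs in KARPAS422, 7 of 10 genes of activated and memory cells tested were higher and 0 lower, against 35.0% of all genes called and 19.8% called higher, with CD70 (log2 2.31), CD86 (1.90), CD1D (1.29) and CD83 (2.84) at the smallest p. Of 8 germinal centre genes 5 were higher and 0 lower, among them LMO2 (3.11), CD38 (3.40) and SERPINA9 (0.78). Of 12 pan-B surface genes 2 were higher, CD40 (2.75) and CD74 (0.80), and 1 lower, the tetraspanin CD81 (-0.79). Without replicate 2 of both drugs, left out here after the data were seen, 5 of the 7 activated and memory genes, all 5 germinal centre genes and all 3 pan-B genes kept their calls. TNFRSF13B (1.13, adjusted p = 0.164) and CD80 (1.81, adjusted p = 0.242) lost theirs. In SuDHL10 1 of 14 pan-B genes was called, CXCR5 (1.44), against 11.8% of all genes, and of 18 binding partners 0 were called by edgeR, with 5 at an adjusted p under 0.1 and a smaller change, against 21.6% of all genes past that p. The median of the antigens tested was 0.67 in KARPAS422, beside 0.10 over all genes (0.84 beside -0.04 without both-drugs replicate 2), and 0.16 in SuDHL10, beside -0.02.

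For each antigen the genes with the most similar profile were found over the 8 groups of the MI-503 experiment, among 11737 genes of at least 5 CPM in a group, by the mean absolute difference of centred log2 CPM. The closest were LIAS for MS4A1 (0.07), PPP1R16A for CD27 (0.11), E2F5 for MME (0.18), PDE1B for CD22 (0.22), AC006453.3 for CD72 (0.27), SIRPA for FCER2 (0.37), KLRK1 for CD9 (0.38), P4HA2 for CR2 (0.47), SLC12A3 for CD44 (0.48) and CMPK2 for CD24 (0.63). For CD24 the next were SLA (0.66) and FAR2P2 (0.88). The measure is not scaled to a gene's spread, so its size does not rank closeness between antigens. MME was followed by CD151 (0.26) and TCL1A (0.27), and FCER2 by RGS20 (0.60) and TIGIT (0.66). E2F5 had 126 CPM with MI-503 and 193 CPM with DMSO in SUDHL5, and 16.2 CPM with MI-503 and 16.7 CPM with DMSO in Farage. These profiles rest on 4 lines with 2 groups each, so they mostly record which line a gene is high in.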

How the data were processed

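RNA was measured in 32 bulk libraries of 5 DLBCL lines. Reads were aligned by the authors to hg38 with HISAT2 (2.1.0), and featureCounts (1.6.1) gave the deposited raw count of each gene. CASAVA (1.7) and Picard (2.23.1) also stand in the submitters' processing notes. Strand setting, annotation and multiple matches are unstated there, so overlapping genes and near-identical copies may share reads. RNA came from an AllPrep kit per the labels and from Trizol per the methods, and ribosomal RNA was removed. Doses and times come from the study's legends. The 2 tables of sgRNA counts were not used.

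Samples were grouped by line, drug and replicate as labelled. Starting from these counts, filterByExpr removed low genes, TMM set the scaling, and tests were made with edgeR (4.0.16, R 4.3.3, limma 3.58.1) by its quasi-likelihood test with Benjamini-Hochberg adjustment over all genes tested. Calls needed an adjusted p under 0.1 together with a change above 1.5-fold. Overlap between groups of 2 libraries was read for the antigens alone, and its share over all genes was not counted. Each line was fitted alone for MI-503, the drug combination was fitted per line over its 8 libraries, and all 16 libraries of a table shared a fit for differences between lines. The scripts were tested on simulated counts. For both drugs in KARPAS422, 58% of simulated 2-fold and 73% of 4-fold changes were recovered, against 88% and 99% in SuDHL10. For MI-503 in KARPAS422 it was 96% and 100%. A count of 0 in the combination fit of KARPAS422 may therefore miss changes. Coordinates are from GENCODE on hg38. Alternatives were DESeq2 (1.42.0), scaling by RLE size factors or by total counts, no filter, 1 fit of 16 libraries, a replicate block, the 2 compared groups alone, thinning to equal depth and leaving out each library, plus a crossed block in SUDHL5 added after the data were seen. A ratio on few reads has a 95% counting interval, and a floor is 3 counts over a group. A fold against the floor leaves out the counting error of the other group.

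The members and lists were chosen with earlier results of these data known. Named genes are the 10 antigens, up to 4 called genes of a list with the smallest p, marker genes that differ by over 10 CPM, and the 3 nearest profiles. Replicate libraries differed by more than counting noise, with a chi-square of 1.955 to 47.45 per gene. Same-numbered libraries of a line deviated together in the drug combination, with r from 0.22 to 0.795 over pairs of groups. The replicate block therefore took the numbers to pair them there, although no source says what a number marks. The main fits had no such block, so their calls are unpaired.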

Additional observations from a re-analysis of the deposited data

Results flagged for a closer look

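The change with MI-503 differed among the 4 lines, by edgeR's test of the difference itself, for 8 antigen genes. The largest gap between a pair of lines, on the log2 scale, was 3.43 for FCER2, 1.89 for CD22, 1.62 for CD72, 1.596 for CR2, 1.20 for CD27, 1.06 for CD24, 0.84 for MME and 0.66 for MS4A1. The gap of FCER2 rested on 2 reads in the DB controls, and that of CD24 was between DB and Farage, where CD24 had 9 reads with DMSO. The gap of CR2 was between KARPAS422 and SUDHL5, where CR2 had 11 reads with DMSO, and this pair was not called with the replicate block (adjusted p = 0.161). The CR2 difference among the 4 lines was lost in 2 of 16 leave-outs, with adjusted p of up to 0.266. The change with both drugs differed between SuDHL10 and KARPAS422 by -2.01 for CD72, -1.83 for FCER2, -1.05 for MS4A1 and -0.85 for MME, and the change with EPZ-6438 by -0.66 for CD72, each as SuDHL10 minus KARPAS422. The lines were treated for different times, so line and time cannot be told apart. No group had the 4 libraries needed to look for single libraries far from the others.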

How the results depend on the processing

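The number of antigen genes called stayed within 1.5 times under RLE size factors, total counts, no filter, DESeq2 and the replicate block for MI-503 in KARPAS422, DB and SUDHL5, for the DMSO comparisons and for the line difference with both drugs. In Farage DESeq2 called 0 in place of 1. With EPZ-6438 in KARPAS422 it was 1, but 3 with total counts, 2 with DESeq2, 3 with the replicate block and 3 with the 2 compared groups alone. With both drugs in KARPAS422 it was 4, but 1 with the 2 groups alone. Over EPZ-6438 it was 1, but 2 with RLE, total counts or thinning and 3 with the replicate block, and over VTP50469 it was 3, but 5 with total counts. In SuDHL10, both drugs gave 1, but 2 without a filter, and the departure from the sum gave 0, but 1 without a filter and 1 with the replicate block. The line difference with EPZ-6438 was 1, but 2 with DESeq2 and 3 with the replicate block. Leaving out 1 library gave 0 to 1 in Farage and 1 to 3 in SUDHL5. In KARPAS422 it gave 0 to 3 with EPZ-6438, 1 to 4 with both drugs, 0 to 6 over EPZ-6438, 0 to 5 over VTP50469 and 0 to 5 for the departure from the sum. These ranges stand without the share of all genes called in each leave-out. In SuDHL10 it gave 0 to 1 for both drugs over DMSO, EPZ-6438 or VTP50469 and 0 to 2 for the departure, and the line difference with EPZ-6438 ranged over 0 to 3. The CD44 change in DB minus SUDHL5 ranged over -6.87 to 3.11, beside -0.17, and FCER2 in DB over SUDHL5 with DMSO over 0.00 to 5.07, on 2 reads. The causes were not tested. Genes called over all genes also moved, at 448 by edgeR, 218 by DESeq2 and 891 without a filter in Farage, and in KARPAS422 at 1605 over EPZ-6438, 3708 with the replicate block and 857 with the 2 groups alone, at 3180 over VTP50469 and 4903 with the block, at 0 for the departure and 28 by DESeq2, and at 4624 with both drugs and 3063 with the 2 groups alone. In SuDHL10, VTP50469 called 0 by edgeR, 7 by DESeq2, 97 without a filter and 116 with the block, both drugs over EPZ-6438 called 273, 491 without a filter, 180 after thinning and 604 with the block, and the departure called 6 by edgeR, 39 by DESeq2, 13 with total counts, 2 after thinning, 242 without a filter and 508 with the block. The line difference with EPZ-6438 called 847 genes with the block, over 1.5 times the number without it, and with VTP50469 70 by edgeR, 124 with RLE, 221 by DESeq2 and 187 with the block. With total counts the median of all genes with both drugs in KARPAS422 was 0.33 in place of 0.10, and between SuDHL10 and KARPAS422 in DMSO -0.19 in place of -0.01. In the MI-503 experiment replicate numbers did not pair libraries in every line, with r from -0.205 in SUDHL5 to 0.152 in KARPAS422, and a crossed block in SUDHL5, added after the data were seen, called 2 antigens and 1981 genes, against 1892. The block left no residual degrees of freedom for the DMSO comparisons, and thinning was not run for differences between lines. CD44, CD9, CR2 and FCER2 were limited by depth in lines where they had under 100 reads.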

Other observations

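Plasma cell and early B cell genes were set beside the antigens as well. In DB with MI-503, 4 of 9 plasma cell genes tested were higher and 2 lower, against 16.2% and 10.2% of all genes. IRF4, a regulator of plasma cell fate, was at log2 3.68 and PRDM1, which ends the B cell programme, at 2.59, while FKBP11 was at -0.90 and MZB1 at -0.60. Both regulators rose in the line in which BCL6 fell and CD27 fell. In KARPAS422 with MI-503, 3 of 8 were higher, among them JCHAIN (0.63), and XBP1, which drives antibody secretion, was lower (-1.31), against 10.1% of all genes called. With both drugs in KARPAS422, XBP1 (-1.55) and SDC1, the plasma cell antigen CD138 (-1.42), were lower, and 2 of 4 were higher, MZB1 (1.14) and SLAMF7 (3.52), against 35.0% of all genes called. Of 5 early B cell genes tested there, IGLL1 (-2.03) and VPREB3 (-0.90), parts of the surrogate light chain or related to it, were lower and CD1C (1.38) and CD34 (3.26) higher. Without both-drugs replicate 2, MZB1 (0.68, adjusted p = 0.204) and CD34 (2.28, adjusted p = 0.174) were not called, and the other calls of both lists were kept. In SuDHL10 with both drugs, FLT3 (1.33), a receptor of early progenitors, was the 1 of 4 early B cell genes called, against 11.8% of all genes.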
